A study of Mus musculus with 7 samples.

Results

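Liprins are scaffold proteins encoded in the mouse by 4 liprin-alpha genes, Ppfia1 to Ppfia4, and 2 liprin-beta genes, Ppfibp1 and Ppfibp2. These 6 genes were taken by symbol from the 53379 rows of a count table of tumour-associated macrophages, and 5 of the 6 passed the filter on low counts. Ppfia4 was chosen by its counts in these libraries, which were far lower in Gpr65-knockout than in wild-type macrophages. Its difference between the genotypes is therefore a description with no test, and the other members came in through their family. The macrophages were sorted as cells positive for CD45, CD11b and F4/80 from tumours of MC38, a mouse colon carcinoma line, 21 days after implantation. The mice were C57BL/6J fed a high-fat diet, and they were either wild-type (n = 4) or knockout (n = 3) for Gpr65, which encodes a receptor for extracellular protons. All 7 libraries thus share the diet, the tumour line and the sort. The sources used here do not give age, sex, or which cells besides macrophages lacked Gpr65.

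Liprin-alpha proteins pair coiled-coil regions, which bind presynaptic and cortical scaffolds, with SAM domains, which bind other proteins including the liprin-betas. They are best known from neurons, where they bind LAR-type receptor tyrosine phosphatases and organise the presynaptic active zone. Outside neurons, liprin-alpha1 and liprin-beta1 belong to cortical complexes at the edge of spreading and migrating cells. PPFIA4 has been listed in human cells among genes induced by low oxygen, which is why Ppfia4 is set here beside hypoxia and glycolysis genes.

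Ppfia4 (ENSMUSG00000026458) lies on the minus strand of chromosome 1, from 134296783 to 134332928 in GRCm38, and no other annotated gene overlaps it. None of the 6663 words of 50 bases in its transcripts occurs in a transcript of another gene, so its reads had no annotated copy to be shared with. RefSeq gives Ppfia4 a start site at 134344716, which lies 11.8 kb before the start at 134332928 that RefSeq shares with GENCODE M21, the annotation used here for names and lengths. The windows of 250 bases before both starts are shown because they differ in the core letters of the hypoxia-response element, ACGTG and GCGTG. The window before the Ppfia1 start is shown beside them as that of the member whose level differed least between genotypes. The sequences are from RefSeq, GRCm38.p6, each read 5′ to 3′ on the minus strand of its gene, and capitals mark ACGTG or GCGTG on either strand.
Ppfia4, upstream start, chr1:134344717-134344966: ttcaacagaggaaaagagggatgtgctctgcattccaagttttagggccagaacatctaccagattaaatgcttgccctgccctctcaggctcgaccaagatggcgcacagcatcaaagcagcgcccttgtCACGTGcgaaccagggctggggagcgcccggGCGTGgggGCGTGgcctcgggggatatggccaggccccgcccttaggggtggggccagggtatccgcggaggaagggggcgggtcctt
Ppfia4, downstream start, chr1:134332929-134333178: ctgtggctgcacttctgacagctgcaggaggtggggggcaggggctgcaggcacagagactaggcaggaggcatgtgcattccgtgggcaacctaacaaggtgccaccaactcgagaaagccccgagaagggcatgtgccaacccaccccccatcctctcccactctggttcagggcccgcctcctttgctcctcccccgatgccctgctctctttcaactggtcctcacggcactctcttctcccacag
Ppfia1, chr7:144553730-144553979: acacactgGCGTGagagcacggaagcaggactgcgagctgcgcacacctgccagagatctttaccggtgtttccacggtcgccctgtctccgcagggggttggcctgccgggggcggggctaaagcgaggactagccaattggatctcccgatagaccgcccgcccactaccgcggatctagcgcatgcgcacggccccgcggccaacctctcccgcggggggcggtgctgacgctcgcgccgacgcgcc
The upstream Ppfia4 window held ACGTG once on each strand, within a single CACGTG from 119 to 114 bases before the start. It also held GCGTG at 2 places on the gene's own strand, from 88 to 84 and from 80 to 76 bases before the start. The downstream window held neither motif. The Ppfia1 window held 1 GCGTG, from 242 to 238 bases before the start. All 6 members matched the table of promoters, with 10 start sites, and 2 of these 10 windows held ACGTG, that of Ppfia2 being the other. GCGTG was in 70% of the 10 windows. Among 32851 windows of the same length before RefSeq starts, 16.6% held ACGTG, 28.2% held GCGTG and 2.58% held at least the 4 matches of the upstream Ppfia4 window. These 4 count CACGTG on both strands, and this is the Ppfia4 window with more matches. At least 4 matches were in 9.76% of the windows of the hypoxia genes and 5.56% of those of the glycolysis genes listed below. These letters describe the windows and show no binding, and counts per gene do not show which start was used.

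The libraries held between 22449772 and 30483733 counts. Gpr65 measured 65.2 to 112 CPM (counts scaled to library size and, by TMM, to library make-up) in the wild-type group and 0.683 to 1.10 CPM in the knockout group. The macrophage genes Adgre1, which encodes F4/80, and Csf1r, the receptor for colony-stimulating factor 1, measured at least 327 and 1805 CPM in each library. Knockout 1 had counts in 18276 genes, the fewest, against 20286 to 23163 in the other libraries. Across 16234 tested genes, 6 passed an adjusted p of 0.05 by edgeR's quasi-likelihood test (0.037%), of which 2 were lower (0.0123%) and 4 higher (0.0246%) in knockout, and 6.12% had groups that did not overlap. The p-values measure the spread between mice of one group.

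Ppfia4 had the highest mean CPM of the liprins in wild-type macrophages and was nearly lost in knockout macrophages, although Ppfibp1 was above it in wild-type 4. It measured 77.3, 156, 175 and 45.8 CPM across wild-type mice 1 to 4, against 2.43, 9.11 and 4.23 CPM across knockout mice 1 to 3. The groups did not overlap, and the lowest wild-type mouse lay 5.03-fold above the highest knockout mouse. The means were 114 ± 61.9 CPM (SD, n = 4) and 5.26 ± 3.46 CPM (SD, n = 3), so that knockout macrophages held 4.63% of the wild-type mean. Behind these values stood 1254 to 5266 counts per wild-type library and 71 to 224 per knockout library, which puts both groups far above the 3 counts taken as the floor of detection. The fitted log2 fold change, knockout minus wild-type, was -4.44 (SE 0.64). Leaving out any 1 library gave values from -5.10 to -4.11. In bulk samples, fewer cells with the transcript and less of it per cell cannot be told apart.

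Ppfia4 also varied within each genotype. The highest wild-type mouse had 3.81-fold the level of the lowest, and the highest knockout mouse 3.76-fold that of the lowest. The same ratio among wild-type mice was 1.39 for Ppfia1, 1.45 for Ppfibp1 and 1.23 for Ppfibp2, and only Ppfia3, at a few counts, exceeded Ppfia4 with 4.93. Among knockout mice it was 1.36 for Ppfia1, 1.85 for Ppfibp1, 3.53 for Ppfibp2 and 15.9 for Ppfia3. Wild-type 3 was the highest and wild-type 4 the lowest of its group, and knockout 2 the highest and knockout 1 the lowest.

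Of all tested genes, 28 had a more negative fold change than Ppfia4, and 22 of these had an average log2 CPM under 1. The other 6 were Gpr65, Retnlg, Alox15, Gm8221, Retnla and Slc9b2, which were listed after their values were seen. Retnla, which encodes a secreted resistin-like protein of alternatively activated macrophages, was the one of these closest to Ppfia4 in abundance, at 105 CPM in wild-type and 3.38 CPM in knockout libraries on average. The share of tested genes with a fold change at or below that of Ppfia4 was 0.179%, a place fixed by the way Ppfia4 was chosen.

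**Figure D1:**
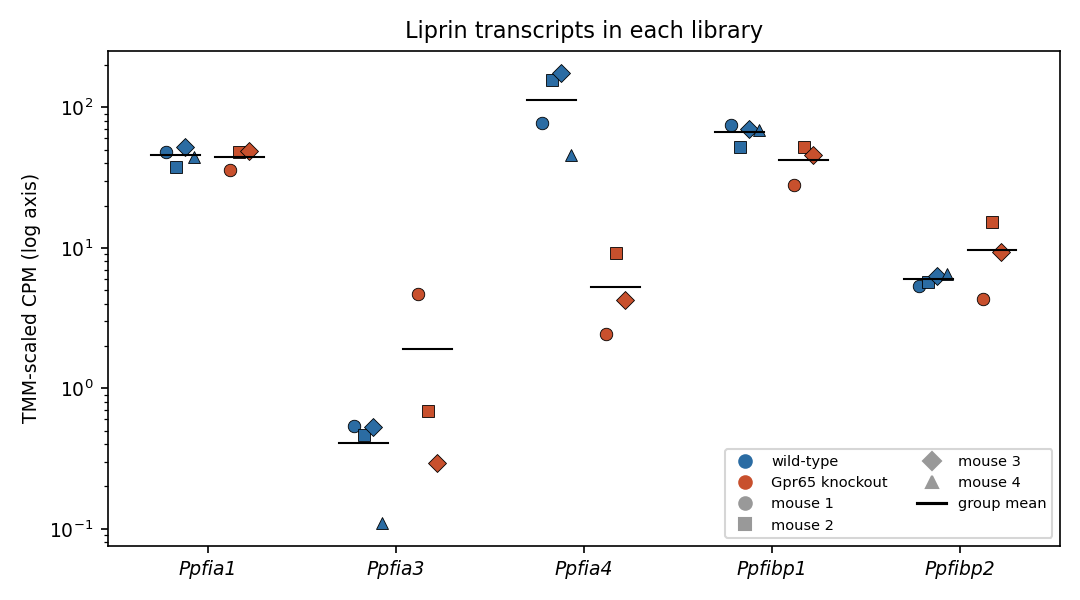
TMM-scaled CPM, on a log axis, of the 5 liprin genes that passed the filter, in 4 wild-type and 3 knockout libraries, with the marker shape giving the mouse number within its group and bars the group means. Ppfia4 is at 45.8 to 175 CPM in wild-type and 2.43 to 9.11 CPM in knockout mice, while the groups overlap for the other 4 genes.

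The other liprin-alpha genes did not share this pattern. Ppfia1, the broadly expressed liprin-alpha, measured 48.0, 37.3, 51.8 and 44.4 CPM across wild-type mice 1 to 4, against 36.1, 47.7 and 49.2 CPM across knockout mice 1 to 3. The groups overlapped over nearly their whole range. Ppfia1 had a log2 fold change of -0.034 (SE 0.18, edgeR adjusted p = 0.9999), with a 95% interval from -0.45 to 0.38, which is 0.733-fold to 1.30-fold. The sign of this small value turned without wild-type 3 and without knockout 1.

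Ppfia3, a liprin-alpha known mainly from brain, was near the limit of detection in all libraries but knockout 1. It had 13, 12, 16 and 3 counts across wild-type mice 1 to 4, against 137, 17 and 8 counts across knockout mice 1 to 3. They correspond to 0.541, 0.463, 0.531 and 0.1096 CPM in wild-type and 4.68, 0.692 and 0.294 CPM in knockout libraries. Only knockout 1, the library with the fewest detected genes, stood high. The log2 fold change of 2.19 (SE 0.98, edgeR adjusted p = 0.93) was 0.24 (SE 0.91) without that library. Its exons overlap those of Mtag2, an antisense gene with 22 counts over all libraries, and the sources used here do not say if reads were counted by strand.

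Ppfia2, the other mainly neuronal liprin-alpha, had 1 count in knockout 2 and 0 counts in every other library. It did not pass the filter and was not tested. A floor of 3 counts corresponds to 0.0995 to 0.125 CPM per library, for counting error only.

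The liprin-beta genes had fold changes of opposite sign, and neither passed the threshold. Ppfibp1 encodes liprin-beta1, a binding partner of liprin-alpha proteins. It measured 75.2, 51.9, 70.3 and 68.6 CPM across wild-type mice 1 to 4, against 28.0, 51.9 and 45.8 CPM across knockout mice 1 to 3. Only wild-type 2 and knockout 2 met, at 51.9 CPM each, with knockout 2 higher by less than the printed digits show. Ppfibp1 had a log2 fold change of -0.67 (SE 0.24, unadjusted p = 0.021, edgeR adjusted p = 0.84). Without knockout 1, the lowest library, it was -0.46 (SE 0.18).

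Ppfibp2, which encodes liprin-beta2, measured 5.32, 5.67, 6.34 and 6.54 CPM across wild-type mice 1 to 4, against 4.30, 15.2 and 9.30 CPM across knockout mice 1 to 3. The wild-type mice lay close together, whereas the knockout mice lay on both sides of them. Ppfibp2 had a log2 fold change of 0.68 (SE 0.39, edgeR adjusted p = 0.9999), with a 95% interval from -0.20 to 1.57. It was 0.19 without knockout 2, the highest library, and 1.02 without knockout 1, the lowest.

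Among the 4 tested members that came in through their family, none passed the threshold, against 0.037% of all tested genes. None of them passed by limma voom or by DESeq2, which called 0.691% of the genes it tested. At an unadjusted p under 0.05, edgeR held 1 of them, Ppfibp1, against 5.37% of all tested genes. DESeq2 and limma voom each held 2 at that level, 1 lower and 1 higher, for which no share of all tested genes was taken.

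Per length of exon, the make-up of the family differed between the genotypes. Each level here is CPM divided by the summed length of a gene's annotated exons in kb, which allows genes to be compared but counts exons that these cells may not use. In wild-type mice the order was Ppfia4 at 17.3 (6.97 to 26.6), Ppfibp1 at 5.97 (4.66 to 6.75), Ppfia1 at 3.61 (2.97 to 4.13), Ppfibp2 at 0.566 (0.505 to 0.620) and Ppfia3 at 0.0520 (0.0139 to 0.0685) CPM per kb. These ranges did not overlap between neighbours, and Ppfia4 and Ppfibp1 came closest in wild-type 4, at 6.97 and 6.16 CPM per kb.

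In knockout mice Ppfibp1 (2.51 to 4.66) and Ppfia1 (2.87 to 3.92) led with overlapping ranges. Ppfibp2 (0.408 to 1.44) and Ppfia4 (0.369 to 1.39) followed, also overlapping, and Ppfia3 ranged from 0.0372 to 0.593 CPM per kb. Ppfia4 made up 51.4%, 74.3%, 70.5% and 40.3% of the summed liprin level across wild-type mice 1 to 4, against 5.46%, 12.2% and 6.70% across knockout mice 1 to 3. The sum without Ppfia4 was 8.22 to 11.1 CPM per kb in wild-type and 6.39 to 9.99 CPM per kb in knockout mice, and these ranges overlapped.

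**Figure D2:**
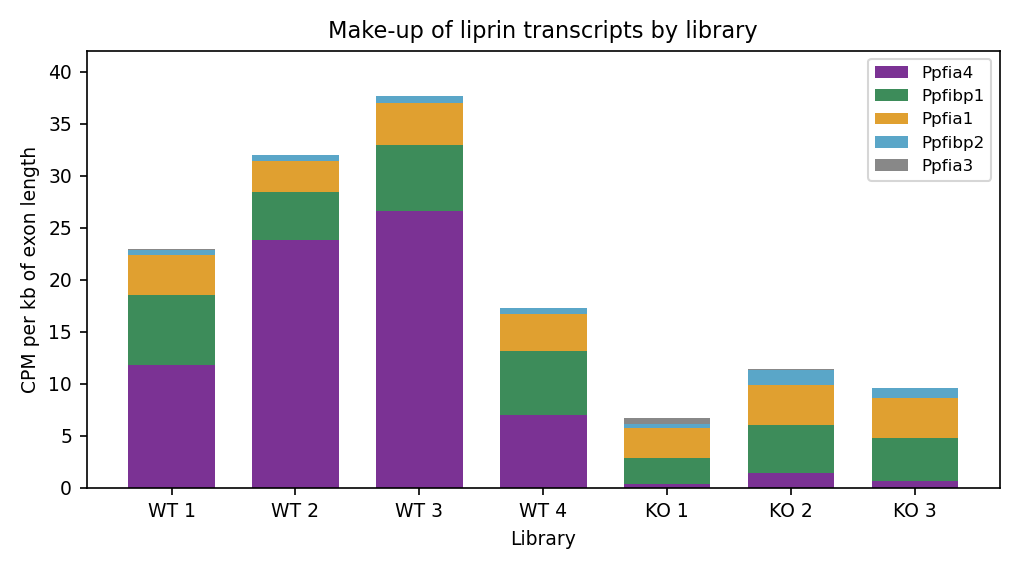
Stacked levels of 5 liprin genes in each library, as CPM per kb of exon length, for wild-type (WT) and knockout (KO) mice. Ppfia4 makes up 40.3% to 74.3% of the wild-type bars and 5.46% to 12.2% of the knockout bars, while the summed level of the other genes lies between 6.39 and 11.1 CPM per kb in all libraries.

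Ppfia4 was next set beside 37 genes of the response to low oxygen, 36 of them tested, and 24 glycolysis genes, all tested. Most members of both lists had negative fold changes, and none was as negative as Ppfia4. Of the hypoxia genes 29 were negative and 7 positive, and their median was -0.34. The median of all tested genes was -0.0016, with 50.3% negative and 49.7% positive. Of the glycolysis genes 20 were negative and 4 positive, with a median of -0.16. No member of either list passed the threshold by edgeR. At an unadjusted p under 0.05, 7 hypoxia genes were lower and 1 higher, and 2 glycolysis genes were lower and 1 higher, against 2.79% of all tested genes lower and 2.57% higher. DESeq2 called 1 hypoxia gene, Ero1l, and no glycolysis gene, and limma voom called none.

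The most abundant hypoxia genes had fold changes of both signs. Vegfa, which encodes the main angiogenic growth factor, measured 346, 601, 517 and 470 CPM across wild-type mice 1 to 4, against 273, 564 and 802 CPM across knockout mice 1 to 3, with overlapping groups. Hilpda, a lipid droplet protein induced by low oxygen, measured 193, 541, 108 and 321 CPM in wild-type and 159, 62.7 and 81.2 CPM in knockout mice, with a log2 fold change of -1.52 (SE 0.54, edgeR adjusted p = 0.84). For Bhlhe40, a transcriptional repressor, the log2 fold change was -0.69 (SE 0.38), and for the cytokine Mif it was -0.13 (SE 0.23). Wsb1, part of a ubiquitin ligase, had -0.050 (SE 0.20), and the collagen prolyl hydroxylase P4ha1 had 0.16 (SE 0.16).

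The ends of the hypoxia list were genes of low counts. Lox, a collagen cross-linking enzyme, had -2.53 (SE 1.36) and Tmem45a had 1.10 (SE 1.60). Ero1l, an oxidase of the endoplasmic reticulum that was picked after its values were seen, measured 225, 183, 183 and 214 CPM in wild-type and 147, 94.9 and 112 CPM in knockout mice. Its groups did not overlap, and it was 1 of 5 such hypoxia genes lower in knockout, with 2 higher, against 3.33% and 2.8% of all tested genes.

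The most abundant glycolysis genes all had negative fold changes. Aldoa, which encodes aldolase A, measured 1434, 1640, 1384 and 1768 CPM across wild-type mice 1 to 4, against 1395, 1469 and 1329 CPM across knockout mice 1 to 3, with overlapping groups and a log2 fold change of -0.16 (SE 0.17). The log2 fold change was -0.16 (SE 0.17) for lactate dehydrogenase Ldha, -0.13 (SE 0.17) for pyruvate kinase Pkm and -0.15 (SE 0.17) for triosephosphate isomerase Tpi1. Eno1, which encodes enolase 1, had -0.44 (SE 0.15, edgeR adjusted p = 0.82), and the phosphofructokinase Pfkl had -0.067 (SE 0.15). Groups did not overlap for 4 of the 24 glycolysis genes lower in knockout, Tpi1 and Eno1 among them, and for 1 higher, Slc2a3, against 3.33% and 2.8% of all tested genes. The ends of the list were the enolase Eno2 at -1.38 (SE 1.27) and the glucose transporter Slc2a3 at 0.87 (SE 0.34, edgeR adjusted p = 0.92). Gapdh and Pgk1, named after their values were seen, measured only 17.9 to 49.6 and 48.9 to 69.5 CPM over all libraries. Sequence shared with other genes was checked for the liprins only, so loss of shared reads was not tested for this list.

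**Figure D3:**
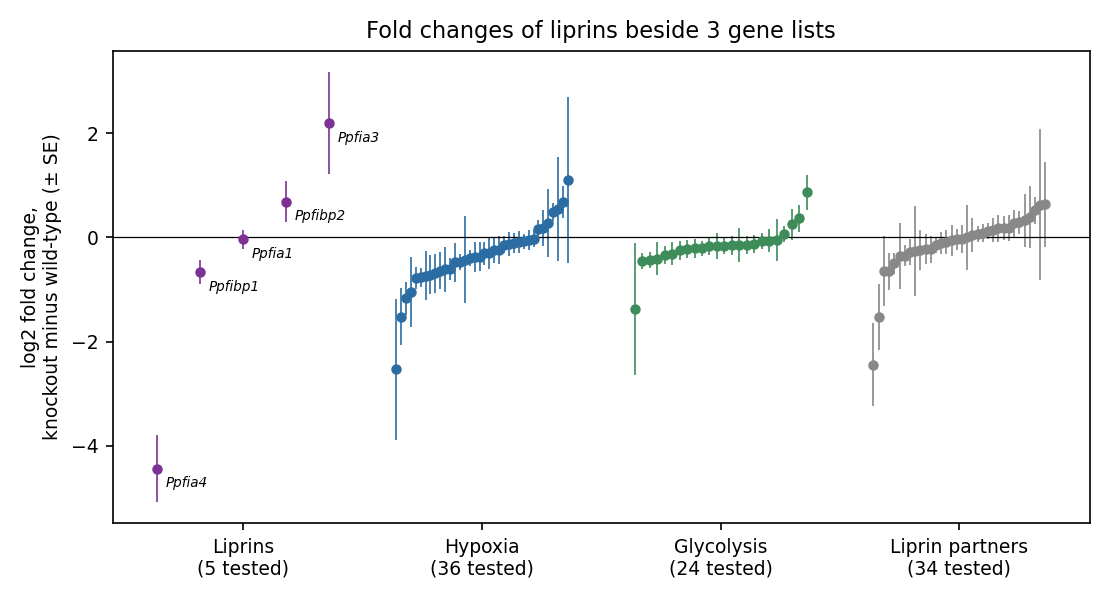
Log2 fold changes, knockout minus wild-type, with standard errors, of the tested liprins, hypoxia genes, glycolysis genes and liprin partners, each sorted from low to high. Ppfia4 lies at -4.44, below the lowest hypoxia gene at -2.53 and the lowest glycolysis gene at -1.38.

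Between mice of the same genotype, the order of Ppfia4 differed from that of both scores. The hypoxia score, the mean log2 CPM of the tested list members, was 5.02, 5.09, 4.95 and 5.27 across wild-type mice 1 to 4, beside Ppfia4 at 6.27, 7.29, 7.45 and 5.52 log2 CPM. Genes of low counts, such as Lox and Tmem45a, weigh as much in the score as abundant ones. The wild-type mice spanned only 0.32 of the score, and the part of low-count genes in their order was not tested. Wild-type 4 had the highest hypoxia score and the lowest Ppfia4, and wild-type 3 the lowest score and the highest Ppfia4. Across knockout mice 1 to 3 the score was 4.68, 4.44 and 4.80, beside Ppfia4 at 1.32, 3.20 and 2.10 log2 CPM. There, too, the mouse with the lowest score, knockout 2, had the highest Ppfia4.

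The glycolysis score was 6.99, 7.16, 7.06 and 7.29 across wild-type mice 1 to 4, against 6.71, 6.92 and 7.14 across knockout mice 1 to 3. It was again highest in wild-type 4, where Ppfia4 was lowest in its group. Among knockout mice both the score and Ppfia4 were lowest in knockout 1. Knockout 3 reached 7.14, within the wild-type range, with Ppfia4 at 4.23 CPM. Of 36 single hypoxia genes, 8, 10, 6 and 12 were highest of the wild-type mice in wild-type 1, 2, 3 and 4. Of 24 glycolysis genes the counts were 2, 4, 4 and 14. These counts were not set against those of all tested genes. Only Pdk1, a kinase that inhibits pyruvate dehydrogenase, ordered the 4 wild-type mice as Ppfia4 did, and it was picked for this after its values were seen.

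Since the 7 libraries fall into separate groups for Ppfia4, no correlation over them is given. With the hypoxia score as a covariate the log2 fold change of Ppfia4 was -6.39 (SE 0.83), and with the glycolysis score it was -4.47 (SE 0.78), against -4.44 without either. The hypoxia scores of the genotypes did not overlap, so the first of these fits separates score and genotype only through the spread between mice of one genotype.

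**Figure D4:**
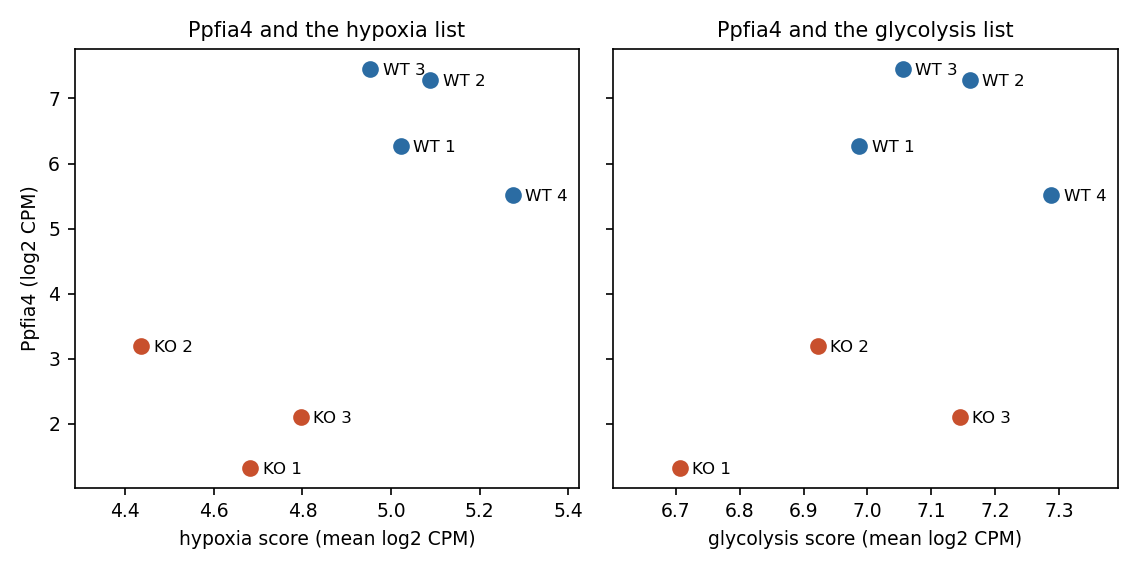
Ppfia4 (log2 CPM) against the hypoxia score and the glycolysis score (mean log2 CPM of each list) in 4 wild-type (blue, WT) and 3 knockout (red, KO) libraries. Wild-type 4 has the highest score in both plots and the lowest Ppfia4 of its group, at 5.52 log2 CPM.

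Genes with a profile like that of Ppfia4 were looked for over all libraries. Likeness was measured over the 7 libraries as the root mean square difference between centred log2 CPM profiles, among 10296 protein-coding genes with an average log2 CPM of at least 1. The profiles were not scaled, so the difference between genotypes for which Ppfia4 was chosen largely sets this measure, and only genes with a very negative fold change can come near. The nearest were F5, which encodes coagulation factor V (1.06), the chondroitin sulfotransferase gene Chst3 (1.07), the endosomal GTPase gene Rab4a (1.08), Gpr65 itself (1.19) and Ccdc80 (1.241). None was close, since the profile of Ppfia4 had a root mean square of 2.32 around its own mean, and all of them other than Gpr65 had at most 10.5 CPM in any library. With a prior count of 0.5 in place of 2, 2 of these 5 remained among the nearest, Chst3 and Gpr65.

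Genes beside Ppfia4 on chromosome 1 did not share its size of difference. Tmem183a, the nearest tested gene before its starts, has its near end at 134346097, which is 13.2 kb from the downstream start and closer to the upstream start of RefSeq. It measured 53.9 CPM in wild-type and 41.3 CPM in knockout mice on average, with a log2 fold change of -0.38 (SE 0.16, edgeR adjusted p = 0.92). Its groups did not overlap. The next genes on that side were Cyb5r1, a cytochrome b5 reductase, at -0.081 (SE 0.22), and the adiponectin receptor gene Adipor1 at 0.37 (SE 0.30). On the other side, Mybph, a myosin-binding protein gene with no more than 1.72 CPM on average, had 2.85 (SE 1.10, edgeR adjusted p = 0.91), with groups that did not overlap. The chitinase-like gene Chil1 had 2.16 (SE 1.08) and the gene model Gm38140 had 0.42 (SE 0.90), both with overlapping groups.

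The genes called liprin partners here were listed by direct binding or by a role in the same complexes. They were present in part and did not share the difference of Ppfia4. Of 45 listed partners 34 were tested, with 19 negative and 15 positive fold changes and a median of -0.038. None passed the threshold by edgeR, DESeq2 or limma voom, and at an unadjusted p under 0.05 edgeR held 3 lower and 0 higher, against 2.79% and 2.57% of all tested genes. Of the LAR-type phosphatase receptors only Ptprs was tested. It measured 64.9, 51.4, 71.9 and 70.9 CPM across wild-type mice 1 to 4, against 47.9, 36.4 and 52.9 CPM across knockout mice 1 to 3, and the groups overlapped only through wild-type 2 and knockout 3. Ptprs had a log2 fold change of -0.50 (SE 0.19, edgeR adjusted p = 0.91).

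Of 18 listed active zone genes 12 were tested, and Rims1, Pclo and Rab3a had 0 counts in all libraries. The vesicle priming gene Unc13a and the scaffold gene Erc1, named after their values were seen, had 9.38 to 14.4 CPM and 3.34 to 11.6 CPM over all libraries, with overlapping groups. Rims2, a presynaptic scaffold chosen after its values were seen, was the partner with the most negative fold change, at -2.44 (SE 0.79, edgeR adjusted p = 0.80), with at most 1.196 CPM in any library. The most abundant of this list were Unc13d, which primes granules for release in immune cells, at 0.27 (SE 0.26), Lin7c at -0.092 (SE 0.23) and Tanc2 at 0.18 (SE 0.23). Of the listed cortical and adhesion genes, talin 1 (Tln1) had -0.23 (SE 0.29), Git2 0.087 (SE 0.17) and Git1 0.12 (SE 0.15). The PP2A phosphatase subunits Ppp2ca, Ppp2r1a and Ppp2r5d had 0.068 (SE 0.15), -0.15 (SE 0.16) and -0.037 (SE 0.27).

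Ppfia4 is known from neurons and skeletal muscle, and the markers of both were at 0 or low. The neuron marker Tubb3 reached 3.76 CPM in knockout 1, where Ppfia4 measured 2.43 CPM. The muscle marker Mylpf reached 2.83 CPM in knockout 3, where Ppfia4 measured 4.23 CPM. Of 7 neuron markers Syt1, Stmn2, Rbfox3 and Nefl had 0 counts in all libraries, and the list summed to 1.75 to 2.86 CPM in wild-type and 1.58 to 4.61 CPM in knockout libraries. Of 7 muscle markers Myog had 0 counts, and the list summed to 1.71 to 2.47 and 1.18 to 3.20 CPM. The part of such cells in the Ppfia4 level was not tested.

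Several marker lists of other cells had mostly negative fold changes, as Ppfia4 did, although no marker on them passed the threshold by edgeR. The 3 tested of 8 epithelial and MC38 markers all had negative fold changes, and the list summed to 126 to 451 CPM in wild-type and 41.9 to 168 CPM in knockout libraries, nearly all of it from Cdh1. Krt18 had 14 to 121 counts in wild-type libraries and at most 8 in knockout libraries, with groups that did not overlap, and Epcam had 58 to 145 and 47 to 92 counts. Krt8 and Krt19 were at 0 in wild-type 1, 2 and 3. The score of this list, over its 3 tested genes, was highest in wild-type 4, as was that of the fibroblast markers. Those of the monocyte and neutrophil markers were highest in wild-type 2. Ppfia4 was highest in wild-type 3 and lowest in wild-type 4. Of 9 neutrophil markers 6 were tested and 5 were negative, with sums of 81.8 to 194 and 84.8 to 182 CPM. Most of each sum came from Csf3r, the positive one, while the score of the list, its mean log2 CPM, averaged 2.54 in wild-type and 0.38 in knockout libraries. Ly6g had 0 counts in all libraries, and Retnlg had a more negative fold change than Ppfia4. All 6 monocyte markers were negative, with sums of 745 to 4192 and 366 to 730 CPM. The highest of these sums, in wild-type 2, came mostly from Chil3, at 3241 CPM there but 16.6 CPM in wild-type 1. Ccr2, named after its values were seen, ranged from 621 to 871 CPM in wild-type and from 294 to 489 CPM in knockout libraries. It was the only monocyte marker whose groups did not overlap. Of 6 tested fibroblast markers 5 were negative, with sums of 124 to 327 and 37.7 to 301 CPM. Other lists had mostly positive fold changes, with all 7 T cell markers and 4 of 5 NK cell markers positive. Their scores, however, averaged 2.95 in wild-type and 2.91 in knockout libraries for T cells, and 1.47 and 1.18 for NK cells. The T cell score ranged from -0.044 in knockout 1 to 5.74 in knockout 3. T cell markers summed to 29.5 to 101 CPM in wild-type and 18.9 to 424 CPM in knockout libraries, the last in knockout 3. The 10 macrophage markers were all tested, 8 of them positive, with sums of 15936 to 21114 and 15466 to 28432 CPM. The part of these cells in the Ppfia4 difference was not tested.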

How the data were processed

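The 7 libraries came from polyadenylated RNA of sorted macrophages, 1 mouse each, prepared with a SMART-seq kit, per the labels' protocols. The authors deposited raw read counts per gene, unnormalized whole numbers. The build was GRCm38, and BWA 0.7.12, DESeq2 1.24.0, cutadapt 1.15 and FastQC 0.11.5 are named, per the submitters' processing notes. The sources used here name neither the counting program nor its strand setting. BWA does not splice alignments, so reads over exon junctions may be missing. This was not tested.

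Genes were named from GENCODE M21 by identifier (53274 of 53379 matched), and rows without a symbol held 0.000338% of counts. Aldoa has 2 identifiers, of which the one with more counts was used. The comparison used edgeR 4.0.16 under R 4.3.3 on all 7 libraries, with TMM scaling, the default filter by group (16234 genes), the robust quasi-likelihood F test and Benjamini-Hochberg adjustment at 0.05. Values are TMM-scaled CPM, and 2 was the prior count for log2 CPM. Each SE is the absolute fold change divided by the square root of F. The fit was tested on simulated data. Alternatives were other scalings and filters, DESeq2 1.42.0, limma 3.58.1 voom with sample weights, a fit without robust estimation, a block for mouse number, the hypoxia or glycolysis score as a covariate, and each library left out.

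The members and lists were chosen with earlier results of these data known. Named genes are the members, Gpr65, list members past the threshold, the highest expressed of each list (6 for hypoxia and glycolysis, 3 for each partner list), the ends of the hypoxia and glycolysis lists, the 5 nearest profiles, and 3 tested neighbours on each side of Ppfia4. Libraries of one group differed far beyond sampling noise. Intervals and floors cover counting error only where they rest on counts of 1 library.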

Additional observations from a re-analysis of the deposited data

Results flagged for a closer look

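Ppfia3 in wild-type 4 stood apart from the rest of its group. Its gap to the nearest mouse was 0.888 of the whole range on the log2 CPM scale. This was 1 of 44 measures looked at over the 4 wild-type libraries, and chance alone marks about 1 in 20. The value rests on 3 counts in that library against 12 to 16 in the others. Groups of 3, as the knockout group is, were not tested for such gaps.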

How the results depend on the processing

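The log2 fold change of Ppfia4 kept its sign in all alternatives run, from -5.10 to -4.11 with 1 library left out, and moved by more than the spread between mice only with the hypoxia score as a covariate (-6.39). The sign of Ppfia1 turned without wild-type 3 (0.025), without knockout 1 (0.083) and with the glycolysis score as a covariate (0.030), within a range of -0.12 to 0.083 with 1 library left out. That of Ppfia3 turned with the glycolysis score (-0.23). Ppfibp1 and Ppfibp2 kept their sign, at -0.85 to -0.46 and 0.19 to 1.02 with 1 library left out. None of Ppfia1, Ppfia3, Ppfibp1 and Ppfibp2 passed the threshold in any alternative run, and Ppfia4 was not tested. The count of all genes past the threshold was 6, and 3 without knockout 2 to 14 without knockout 1, 11 without a filter on low counts and 129 by DESeq2. With the mouse number as a replicate block it was 1. Same-numbered mice deviated together only weakly (correlation 0.051 to 0.088, against -0.16 to 0.077 for other pairs), and wild-type 1 was closer to knockout 2 than to knockout 1, so the numbers were not taken as pairs. DESeq2 called 1 hypoxia gene. The count of glycolysis genes with a positive fold change was 4, but 7 by limma voom and 4 to 7 with 1 library left out. The cause of these shifts was not tested. Counts in both directions of the hypoxia genes and the liprin partners stayed within 1.5 times under all alternatives run. Scaling by library totals moved the median of all genes to -0.11. At the few counts of Ppfia2, and of Ppfia3 outside knockout 1, a difference may not be detectable.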
